A study of Arabidopsis thaliana with 8 samples.

Results

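FATB and AT1G24360 are nuclear genes of fatty acid synthesis in the plastid of Arabidopsis thaliana. FATB encodes an acyl-ACP thioesterase and AT1G24360 a ketoacyl reductase, the step called FABG. They were chosen by their annotated names: each is the gene of the 1 array row whose platform annotation names FATB alone or AT1G24360 alone, so the part holds 2 of 692 rows that name exactly 1 gene, in a table of 3439 rows. The samples were total RNA of wild-type plants of ecotype Columbia 0, a standard laboratory accession, with 4 samples from plants 4 weeks old and 4 samples from plants 1 week old, numbered 1 to 4 within each age. Neither the organs taken nor the source of each sample, from separate plants or from 1 extract, is stated in the labels. The p-values therefore measure the spread between these 8 arrays alone, which may be technical, and so small a number of arrays limits the precision.

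Plants build the acyl chains of nearly all their lipids in the plastid, on a small acyl carrier protein (ACP). In each round of the cycle a condensing enzyme adds carbons to the chain, the ketoacyl reductase reduces the new keto group, a dehydratase removes water and an enoyl reductase completes the round. Chains leave the cycle when a thioesterase frees the fatty acid from ACP: enzymes of the FATB type act mainly on saturated chains such as palmitate, which feed waxes, cutin and membrane lipids, and those of the FATA type mainly on oleate, which the soluble acyl-ACP desaturases supply by making its precursor unsaturated.

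The deposited signals are array intensities in arbitrary units. They summed to 3070 to 3374 in each sample, and 11.3% to 13.6% of a sample's values were exactly 0. The ages separated along the first principal component, which held 61.2% of the variance. Along the second, with 19.8%, samples 3 and 4 of both ages stood apart from samples 1 and 2. No label explains this split, which bears on FATB below. No coordinates are given, since no source used here names the build that the array was designed on, and no probe sequence was used here.

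AT1G24360, the ketoacyl reductase gene, was slightly lower in the older plants, by a difference that did not pass the test across all rows. Its deposited signal was 0.949, 0.888, 1.04 and 0.947 in 4-week samples 1 to 4, against 1.24, 1.19, 1.05 and 1.15 in 1-week samples 1 to 4. All samples of 4-week-old plants lay below all samples of 1-week-old plants, but the nearest values, those of the samples numbered 3, differed little. The mean was 0.955 ± 0.0614 at 4 weeks and 1.16 ± 0.0809 at 1 week (SD, n = 4 each), which is a coefficient of variation of 6.43% and 6.96%. An absence of overlap between the ages was common on this array, at 46.7% of 2924 tested rows in either direction and 19.2% with the lower signals at 4 weeks.

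After quantile normalization, which gives all arrays the same distribution of log2 signals, the log2 difference of AT1G24360 (4 weeks minus 1 week) was −0.25 (SE 0.11, limma unadjusted p = 0.0599, Benjamini-Hochberg adjusted p = 0.107). The 95% interval of the fold, 4 weeks over 1 week, ran from 0.702 to 1.01 around 0.842. On this scale the ages did overlap, because sample 3 of 4-week-old plants lay 0.04 above sample 3 of 1-week-old plants on the log2 scale. An exact two-sided permutation test over the 8 samples gave p = 0.0571 on the normalized values and p = 0.0286, the smallest that 70 assignments allow, on the log2 values as deposited. Such a test treats all 8 samples as exchangeable, although samples 1 and 2 stood apart from samples 3 and 4 in both ages. With samples 1 and 2, and 3 and 4, of an age tied by a random effect, the limma adjusted p of AT1G24360 was 0.300. With samples 1-2 and 3-4 as a block shared by the ages, it was 0.0662 (limma unadjusted p = 0.0407), still short of the threshold.

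The reductase was lower at 4 weeks in every comparison of same-numbered samples on the deposited scale. The signal at 1 week was 1.31-fold that at 4 weeks in the samples numbered 1, 1.34-fold in those numbered 2, 1.02-fold in those numbered 3 and 1.22-fold in those numbered 4. The median log2 difference of all tested rows was 0.16 on the normalized scale, and the AT1G24360 row stood 0.41 lower. On the deposited scale that median was 0.21, and the AT1G24360 row stood 0.49 lower. With the log2 signals of each array centred on their median in place of quantile normalization, its difference was −0.33 with a limma adjusted p of 0.0314, past the threshold of 0.05, in a fit in which 46.2% of all tested rows passed. Its adjusted p lay between 0.0314 and 0.532 in the alternatives.

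FATB, the thioesterase gene, did not pass the test of the age difference, and its signal varied more among the samples of an age than between the means of the ages. Its deposited signal was 0.0930, 0.102, 0.304 and 0.201 in 4-week samples 1 to 4, against 0.0261, 0.0151, 0.0808 and 0.397 in 1-week samples 1 to 4. The ages overlapped fully, with both the lowest and the highest value of the gene among the 1-week samples. The mean was 0.175 ± 0.0992 at 4 weeks and 0.130 ± 0.181 at 1 week (SD, n = 4 each), so that the SD at 1 week was larger than the mean, at a coefficient of variation of 139%. The highest signal was 3.27-fold the lowest among the 4-week samples and 26.4-fold the lowest among the 1-week samples.

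**Figure D1:**
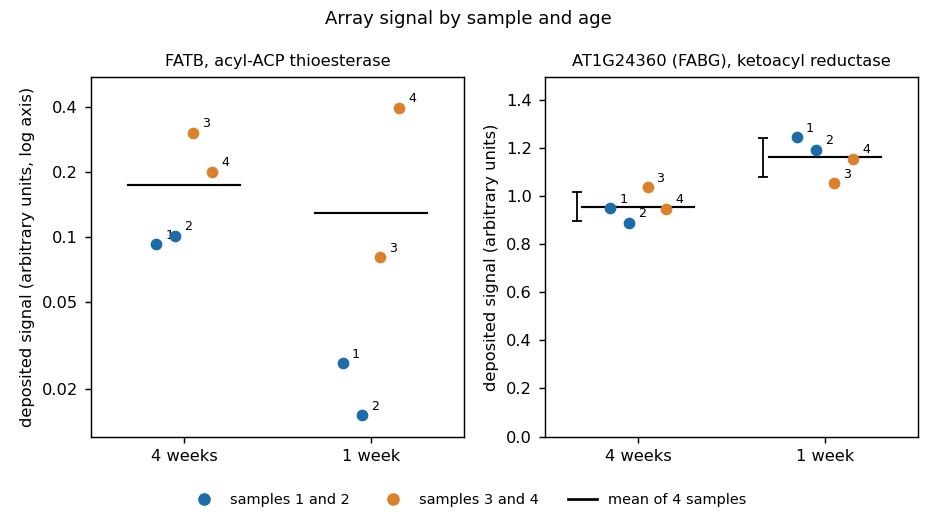
Deposited array signal in arbitrary units of FATB (left, log axis) and AT1G24360 (right, linear axis from 0) in 4 samples of 4-week-old plants and 4 samples of 1-week-old plants. Points carry the sample number, horizontal lines are means and the bars on the right panel are SDs. For FATB, samples 3 and 4 lie above samples 1 and 2 at both ages and the ages overlap, while for AT1G24360 all 4-week samples, from 0.888 to 1.04, lie below all 1-week samples, from 1.05 to 1.24.

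The log2 difference of FATB was 1.18 on the normalized scale (SE 0.99, limma unadjusted p = 0.265, adjusted p = 0.354). Its 95% interval as a fold, 4 weeks over 1 week, ran from 0.470 to 10.9 and so covers a fall as well as a large rise. The exact two-sided permutation test gave p = 0.371 on the normalized values and p = 0.314 on the values as deposited. Of the 2 genes, 0 passed the adjusted threshold in limma and 0 had an unadjusted limma p under 0.05, where 45.7% of all tested rows passed after adjustment and 53.4% before it.

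FATB was higher at 4 weeks in 3 of the 4 comparisons of same-numbered samples. The signal at 4 weeks was 3.56-fold that at 1 week in the samples numbered 1, 6.74-fold in those numbered 2 and 3.77-fold in those numbered 3. In the samples numbered 4 it was the 1-week sample that was higher, 1.98-fold over the 4-week sample. Without that 1-week sample the log2 difference of FATB was 2.07 (limma adjusted p = 0.0508), and without 1-week sample 2, the lowest, it was 0.46 (limma adjusted p = 0.691), within a range of adjusted p of 0.0171 to 0.856 in the alternatives.

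FATB was a dim row. Its mean over all samples lay in the tercile of tested rows with the lowest signal, and the values of 1-week samples 1 and 2 lay below 0.0777, the 5th percentile of all signals above 0 in the table. With that value added as a pseudocount to all signals before log2, which damps differences among dim signals, the log2 difference of FATB was 0.29 (limma adjusted p = 0.659). The part of low signal in the spread of FATB was not tested. AT1G24360 lay outside the lowest tercile, and the same step left its log2 difference at −0.24.

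The spread of FATB followed the split between samples 1 and 2 and samples 3 and 4. In 4-week-old plants the mean deposited signal was 0.253 in samples 3 and 4 and 0.0973 in samples 1 and 2, a ratio of 2.60. In 1-week-old plants it was 0.239 in samples 3 and 4 and 0.0206 in samples 1 and 2, a ratio of 11.6. Samples 3 and 4 were thus above samples 1 and 2 in both ages, without overlap in either. Within the pairs the signals were closest at 4 weeks, where samples 1 and 2 differed 1.09-fold and samples 3 and 4 1.52-fold. At 1 week they differed 1.74-fold between samples 1 and 2 and 4.92-fold between samples 3 and 4.

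AT1G24360 showed a smaller difference between these pairs of samples. Its mean deposited signal at 4 weeks was 0.992 in samples 3 and 4 and 0.919 in samples 1 and 2, a ratio of 1.08, and at 1 week it was 1.10 in samples 3 and 4 and 1.22 in samples 1 and 2, a ratio of 0.906. The direction was therefore opposite in the 2 ages. At 1 week both of samples 3 and 4 lay below both of samples 1 and 2, while at 4 weeks the pairs overlapped. Within a pair, its samples differed at most 1.10-fold.

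Set against all 2814 rows measured in every sample, the genes lay toward opposite ends of the range of spread. On the normalized log2 scale the SD of FATB was 0.83 at 4 weeks and 2.15 at 1 week, larger than in 95.2% and 99.5% of these rows, whose medians were 0.23 and 0.25. Among the 881 of them in the tercile of lowest signal, 92.4% and 98.9% still had a smaller SD than FATB. The SD of AT1G24360 was 0.09 at 4 weeks and 0.14 at 1 week, and 9.77% and 21.6% of all rows had a smaller one. These percentages describe where 2 rows lie and carry no test.

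For the split itself, FATB lay toward the upper end of all rows and AT1G24360 nearer the middle. The log2 difference of samples 3 and 4 minus samples 1 and 2 for FATB was 1.35 at 4 weeks, above that of 97.6% of rows, and 3.35 at 1 week, above that of 99.8% of rows. For AT1G24360 it was 0.06 at 4 weeks and −0.23 at 1 week, inside the range between the quartiles of all rows, which was −0.28 to 0.27 at 4 weeks and −0.33 to 0.32 at 1 week. A shift in 1 direction at both ages was not rare, since 32.6% of rows were higher in samples 3 and 4 at both ages and 35.1% were lower at both ages. Shifts at least as large as that of FATB at both ages were found in 4 rows, FATB included.

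**Figure D2:**
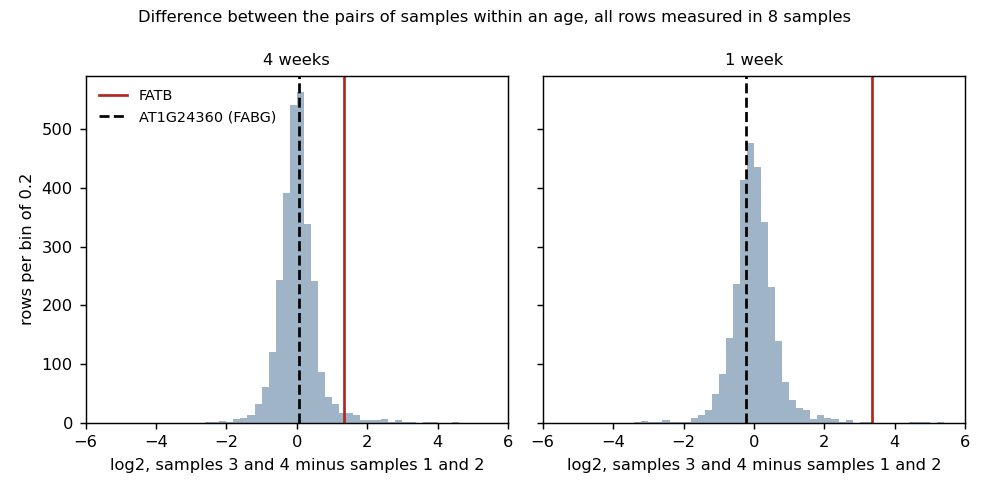
Histogram of the log2 difference of samples 3 and 4 minus samples 1 and 2 (normalized signals) at 4 weeks (left) and 1 week (right) for 2814 rows, with FATB as a solid line and AT1G24360 as a dashed line. FATB lies in the right tail at both ages, at 1.35 and 3.35, and AT1G24360 near the centre, at 0.06 and −0.23.

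The age difference was also taken within these pairs of samples. In samples 1 and 2 alone, the mean deposited signal of FATB was 0.0973 at 4 weeks and 0.0206 at 1 week, 4.72-fold higher in the older plants, and a limma fit of these 4 samples gave a log2 difference of 1.97 (adjusted p = 0.0171). In samples 3 and 4 alone it was 0.253 at 4 weeks and 0.239 at 1 week, with a log2 difference of 0.19 (limma adjusted p = 0.856). Such fits use only the spread within a pair. Of all tested rows, 44.2% passed in the fit of samples 1 and 2, and 48.4% in that of samples 3 and 4.

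For AT1G24360 the mean deposited signal was 0.919 at 4 weeks and 1.22 at 1 week in samples 1 and 2, a log2 difference of −0.38 in the fit of these samples alone (limma adjusted p = 0.0453). In samples 3 and 4 it was 0.992 at 4 weeks and 1.10 at 1 week, with a log2 difference of −0.11 (limma adjusted p = 0.532). Both genes thus passed in samples 1 and 2 and did not in samples 3 and 4, which does not show that the age effect differed between the pairs.

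The test of that difference, the interaction of age and pair in limma, did not pass for either gene. For FATB the age effect in samples 3 and 4 minus that in samples 1 and 2 was −2.0 on the log2 scale (SE 0.97, unadjusted p = 0.0856, limma adjusted p = 0.310), and it was −3.01 without 1-week sample 3, −0.98 without 1-week sample 4 and −0.55 with the pseudocount. For AT1G24360 it was 0.29 (SE 0.16, unadjusted p = 0.116, limma adjusted p = 0.359). Over all rows this test called 0.32% of 2814 after adjustment and 19.7% at an unadjusted p under 0.05. The split was first seen in these same data, so these p-values are not independent of it.

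The changes of the 2 genes pointed in opposite directions, and the difference between them was not larger than the spread. The log2 ratio of FATB to AT1G24360 within a sample was higher at 4 weeks by 1.43 on the normalized scale, and a two-sided exact permutation test over the 8 samples gave p = 0.314. Leaving out 1-week sample 4 gave 2.34 (exact p = 0.0571 over 35 assignments), and leaving out 1-week sample 2 gave 0.67 (exact p = 0.600 over 35 assignments). With the pseudocount the difference was 0.53 (exact p = 0.371).

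**Figure D3:**
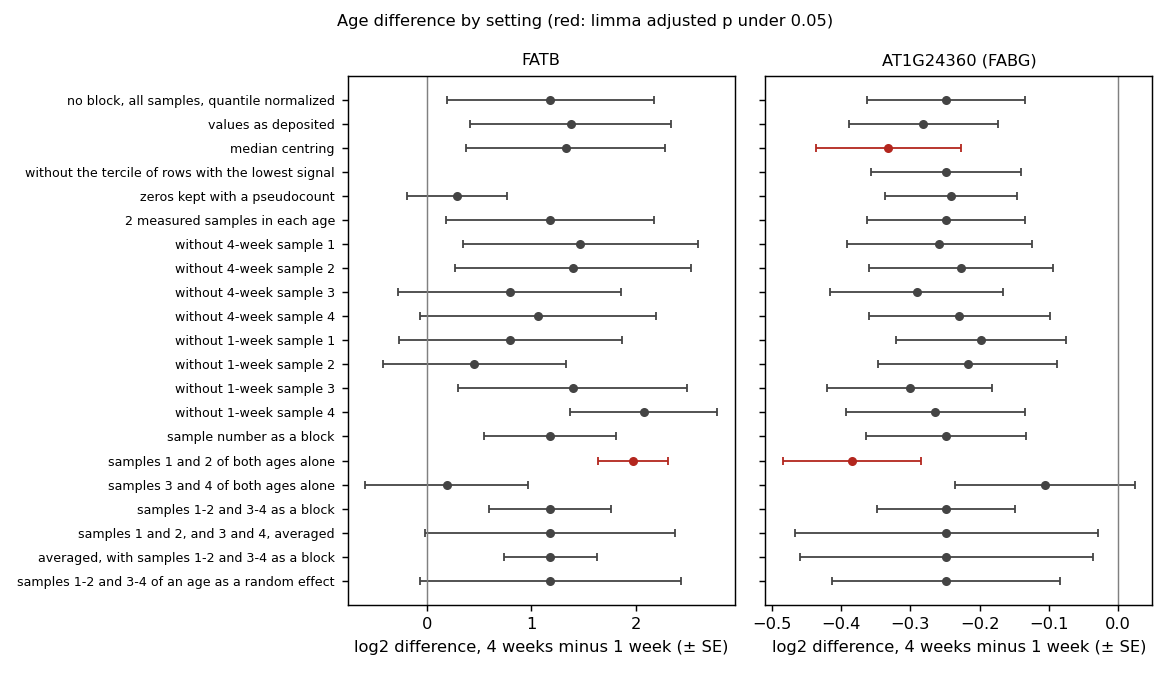
Log2 difference of 4 weeks minus 1 week with its SE for FATB (left) and AT1G24360 (right) under each way of processing the samples, with a limma adjusted p under 0.05 in red. All values of FATB are above 0, from 0.19 to 2.07, and all of AT1G24360 are below 0, from −0.38 to −0.11; FATB has no value without the tercile of lowest signal, in which it lies.

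The rest of the pathway was measured thinly. Of 45 listed genes of plastid fatty acid synthesis and the first steps around it, 3 had a row of their own, the pair above and AT5G16230, a gene of the acyl-ACP desaturase family. None of the 3 passed in limma, and 0 had an unadjusted p under 0.05, where 45.7% of all tested rows passed after adjustment and 53.4% before it. Their median log2 difference was −0.16, with 1 above 0 and 2 below, against a median of 0.16 over all tested rows.

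AT5G16230 had a deposited signal of 0.384, 0.315, 0.193 and 0.209 in 4-week samples 1 to 4, against 0.308, 0.244, 0.274 and 0.256 in 1-week samples 1 to 4. At 4 weeks samples 1 and 2 were the high ones and samples 3 and 4 the low ones, the reverse of FATB, and the 1-week samples lay between. The log2 difference between the ages was −0.16 (SE 0.26, limma adjusted p = 0.633). It was −0.63 in samples 3 and 4 alone (limma adjusted p = 0.0183) and 0.30 in samples 1 and 2 alone (limma adjusted p = 0.255), and the interaction of age and pair had an unadjusted limma p of 0.00606 and an adjusted p of 0.132. The adjusted p of its age difference lay between 0.0183 and 0.987 in the alternatives.

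A further 8 rows name several genes with a listed gene among them, and their signal cannot be given to any 1 gene. Of these, 5 could be tested, of which 2 were higher at 4 weeks, 0 were lower and 3 did not pass, with a median log2 difference of 0.51. Of all tested rows, 25.3% passed with the higher signal at 4 weeks and 20.4% with the lower one.

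The row that names both thioesterase genes of the FATA type was higher in the older plants. Its deposited signal was 0.906, 0.896, 0.794 and 0.755 in 4-week samples 1 to 4, against 0.631, 0.603, 0.245 and 0.427 in 1-week samples 1 to 4, without overlap between the ages. The log2 difference was 0.87 (SE 0.28, limma adjusted p = 0.0360). Samples 1 and 2 were above samples 3 and 4 at both ages, again the reverse of FATB. The call did not hold without 4-week sample 1, 2, 3 or 4 (limma adjusted p = 0.0820, 0.0811, 0.0611 and 0.0505) or without 1-week sample 4 (0.0734), nor with the samples of a pair averaged (0.190) or tied by a random effect (0.129), and the lowest adjusted p of any alternative was 0.00708.

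The other row that rose names 3 genes of the acyl-ACP desaturase family. Its deposited signal was 0.226, 0.317, 0.241 and 0.373 in 4-week samples 1 to 4, against 0.0282, 0.102, 0.139 and 0.114 in 1-week samples 1 to 4, without overlap. The log2 difference was 1.61 (SE 0.49, limma adjusted p = 0.0275). It missed the threshold without 4-week sample 2 (0.0635) or 4 (0.0642), in samples 1 and 2 alone (0.0604), with pairs averaged (0.0928) and with a random effect (0.180), and without 1-week sample 1, the lowest, its log2 difference was 1.07. The lowest adjusted p of any alternative was 0.00717.

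A row that names 2 genes of the same desaturase family had signals of 0.810 to 0.990 at 4 weeks and 0.653 to 0.887 at 1 week, higher at 4 weeks in 4 of 4 same-numbered comparisons. Its log2 difference of 0.26 (SE 0.12, limma adjusted p = 0.102) did not pass. A row that names both dehydratase genes, whose enzyme follows the ketoacyl reductase in the cycle, had signals of 0.506 to 0.768 at 4 weeks and 0.551 to 0.838 at 1 week, and its log2 difference was −0.09 (SE 0.19, adjusted p of 0.726 in limma). A row that names a plastid fatty acid exporter gene and 1 other gene missed the threshold at a difference of 0.51 on that scale (SE 0.28, limma adjusted p = 0.176). That difference was 0.81 on the values as deposited, 0.25 with the pseudocount, 0.32 without 4-week sample 4, 0.17 in the fit of samples 1 and 2 and 0.86 in that of samples 3 and 4.

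The 3 rows not tested held values of 0 in too many samples. A row that names FATB together with both FATA-type genes was at 0 in all 8 samples, although the FATB row and the FATA-type row had signals above 0 in all of them, so a 0 in this table does not show that a transcript was absent. A second row naming both dehydratase genes was at 0 in all 4-week samples and above 0 in 1 of the 4 1-week samples, and a row naming 2 other desaturase genes was above 0 in 2 of 4 samples at 4 weeks and 3 of 4 at 1 week.

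**Figure D4:**
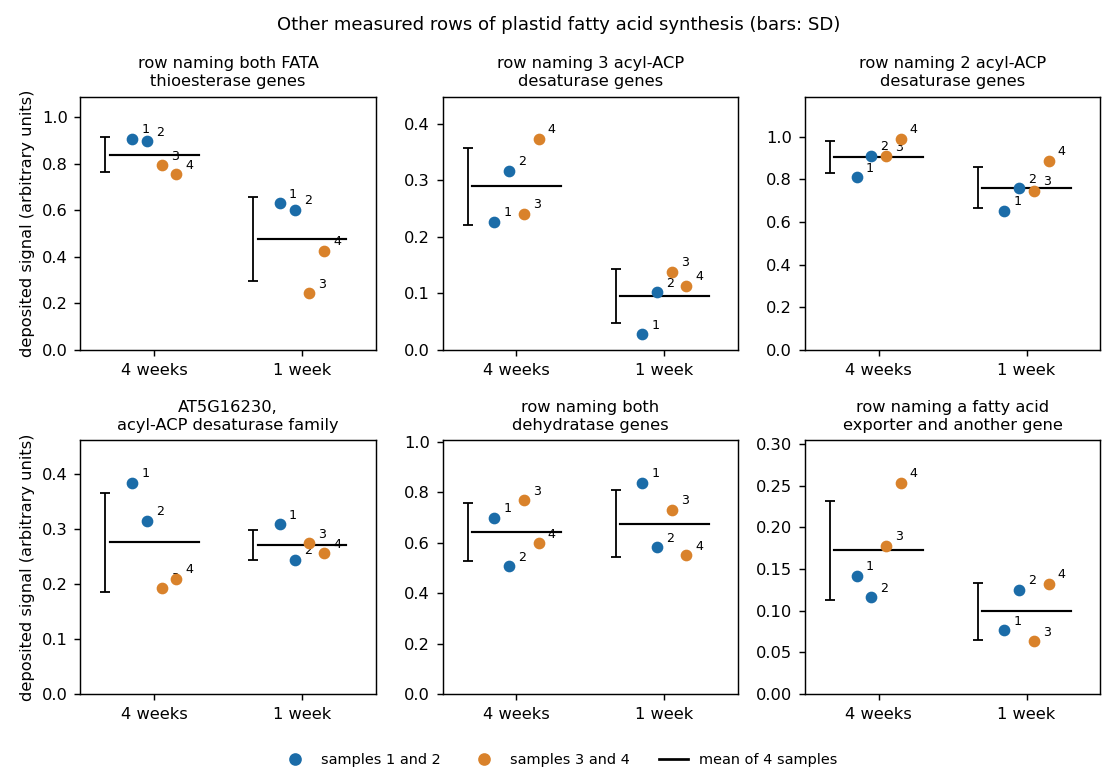
Deposited array signal in arbitrary units, on linear axes from 0, of 6 further rows of plastid fatty acid synthesis in samples of 4-week-old plants (left of each panel) and 1-week-old plants (right). Points carry the sample number, horizontal lines are means and bars are SDs of 4 samples. The ages do not overlap for the row naming both FATA-type genes or for the row naming 3 desaturase genes, and they overlap for the other 4.

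The likeness of other genes to the pair was measured as Pearson's r of normalized log2 signals over the 8 samples, against 563 other single-gene rows above 0 in every sample, as a description in which all points share the same 8 arrays. The rows most like FATB were those of AT4G34310 (r = 0.94), AT3G51510 (0.91), AT5G44000 (0.91), AT1G32160 (0.90) and AT5G52960 (0.89). With the age means removed, these correlations were 0.88 to 0.93, so they rest on differences among samples of 1 age. The log2 age differences of these 5 genes were 0.13 to 0.29, and none passed in limma. Least like FATB were AT2G46220 (r = −0.94) and chr31, annotated as a chromatin remodeling gene (r = −0.93).

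The rows most like AT1G24360 were those of AT5G49840 (r = 0.93), AT2G35450 (0.92), AT4G22830 (0.92), AT3G04650 (0.91) and AT5G41960 (0.90). All 5 had lower signals at 4 weeks, with log2 differences from −0.93 to −0.55, and 4 of them passed in limma, the exception being AT4G22830 (−0.59, limma adjusted p = 0.0753), where 20.4% of all tested rows passed with the lower signal at 4 weeks. The genes were picked by their correlation with AT1G24360 over both ages, so their shared direction follows from the choice. With the age means removed the correlations were 0.74 to 0.85. Least like it were AT2G21960 (r = −0.97), which rose at 4 weeks by a log2 difference of 0.52 (limma adjusted p = 0.0483), and AT3G11150 (r = −0.93). Between FATB and AT1G24360 themselves r was −0.54.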

How the data were processed

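The authors deposited 1 table of array intensities on a linear scale, in 8 columns, 1 per sample. Their scanning, background correction and scaling are not given in the sources used for this work. The highest value is 100. Ages and sample numbers were taken from the labels. Rows were named with the platform annotation and updated through gene numbers with a RefSeq gene table of TAIR10.1. Of the rows, 692 name 1 gene, 870 several and 1877 none here. The signal of a row with several genes is given to none of them in the text.

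Values were taken to log2, with each 0 treated as missing, and quantile normalized, since array medians spanned 0.12. Of the rows, 2 at the ceiling in every sample were dropped. At least 3 values per age were required, and 2924 rows met this. The contrast of 4 weeks minus 1 week was fitted in limma 3.58.1 (lmFit, eBayes; R 4.3.3, with statmod 1.5.0 for the random effect). Benjamini-Hochberg adjustment ran over all rows, with a threshold of 0.05. The interaction of age and pair was fitted to the 2814 rows measured in all samples. The fit was tested on simulated data, and the outcome is not given here.

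The members, the pathway list and the alternatives were chosen with earlier results of these data known. The named genes are the members, other listed genes with a row of their own, and the 5 most and 2 least correlated single-gene rows of each member. The fit has no block. Deviations from the age means correlated at 0.425 to 0.527 between same-numbered samples, at 0.180 to 0.396 between other numbers of the same pair and at −0.419 to −0.351 between pairs. On this ground, and from no label, the sample number was used as a block in an alternative fit only.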

Additional observations from a re-analysis of the deposited data

Results flagged for a closer look

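Of the rows reported here, 1 had a sample far from the others of its age. The second row naming both dehydratase genes was at 0.000637 in 1-week sample 3 and at 0 in the other 1-week samples, so the gap between that sample and the others was 1, the whole range. With the other values tied at 0, any value above 0 gives this result, however small. In FATB at 1 week the gap between sample 4 and the next sample was 0.828 of the range of deposited signals, just under the critical value of Dixon's test. On the normalized log2 scale, which the fits use, that gap was 0.42 of the range, far below the critical value.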

How the results depend on the processing

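The age difference of FATB kept its direction under 19 alternatives, from 0.19 to 2.07 on the log2 scale, and passed the threshold under 1 of them, samples 1 and 2 alone (1.97); without 1 sample it ran from 0.46 to 2.07. Without the tercile of lowest signal FATB had no value. That of AT1G24360 kept its direction under 20 alternatives and passed under 2, median centring (−0.33) and samples 1 and 2 alone (−0.38); without 1 sample it ran from −0.30 to −0.20. Blocks, averaging, a random effect and fewer required values per age cannot move a log2 difference here, where both genes were measured in every sample. Under them the direction was fixed in advance, and only the p-values could change. The same held for AT1G24360 without the tercile of lowest signal. With the sample number as a replicate block the adjusted p was 0.161 for FATB and 0.119 for AT1G24360 (log2 differences 1.18 and −0.25), and the block changed no call of a gene or row of the pathway. With samples 1-2 and 3-4 as a block the limma adjusted p was 0.118 for FATB and 0.0662 for AT1G24360. The interaction and the ratio of the 2 genes kept their direction and missed the threshold under all their alternatives. The count of called rows was 1337, and 1656 with the sample number as a block. It was 400 with the samples of a pair averaged, 727 with a random effect for them and 1070 to 1276 without 1 sample. With samples 1-2 and 3-4 as a block it was 1692, and 1061 with averaging and that block together. The number of the 3 listed genes that passed was 0, against 1 after median centring, 2 from samples 1 and 2 and 1 from samples 3 and 4. The log2 difference of AT5G16230 changed sign without 4-week sample 3 and in samples 1 and 2 alone (0.30), and without 1 sample it ran from −0.37 to 0.00559. That of the tested row of both dehydratase genes changed sign without 4-week sample 2, without 1-week sample 1 and in samples 3 and 4 alone (0.0700), and without 1 sample it ran from −0.19 to 0.0373. The cause of these changes was not tested. The alternatives for rows other than the members were added after the data were seen.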
